A study of Rattus norvegicus with 9 samples.

Results

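Neurotransmitter receptor genes were taken by gene symbol, as the genes whose symbol starts with Gabr, Gabbr, Gria, Grik, Grin1, Grin2, Grin3, Grm, Glra, Chrn, Chrm, Htr, Adra, Adrb, Drd or Opr. These are the receptors for GABA, glutamate, glycine, acetylcholine, serotonin, noradrenaline, dopamine and opioid peptides. The rule uses symbols and no measured value, but it was set with earlier results of these data known. On the array 136 probe sets with 1 annotated symbol matched, and they belong to 99 of the 10411 genes with a symbol. The same letters also begin the names of 4 genes that encode no receptor. These are Htra1, Htra2 and Htra3, which encode serine proteases, and Oprpn, which encodes a secreted precursor peptide. The other 95 genes are receptors, of which 52 encode subunits of ion channels and 43 encode G protein-coupled receptors.

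The tissue was the dorsal root ganglia (DRG) of lumbar levels L4 to L6 from Sprague-Dawley rats. DRG are the clusters of sensory neuron cell bodies, with their glia, beside the spinal cord. Normal rats were given vehicle, and rats injected with streptozotocin (STZ), a toxin of the pancreatic beta cells used to model diabetes, were given either vehicle or FK1706, an immunophilin ligand. Dosing lasted 1, 2 or 3 weeks and ganglia were sampled on the following day. Each of the 9 arrays holds equal amounts of RNA from 5 rats of a group, so that each group has 1 array per week. No normal rats were given FK1706, so that in a comparison of STZ FK1706 with normal rats STZ and drug cannot be told apart. The p-values rest on the spread left after group and week are fitted. With 1 array per group and week, differences between pools and group differences that vary by week cannot be told apart in it. The dose, sex and age are not given in the sources used here.

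Ligand-gated receptors are assembled from several subunits around an ion pore and act within milliseconds, while G protein-coupled receptors act more slowly through second messengers. In the DRG both kinds are made in the cell bodies and carried to the peripheral endings and to the central terminals in the dorsal horn. There GABA-B, opioid, alpha-2 adrenergic and group III metabotropic glutamate receptors are known to reduce transmitter release, and the 5-HT3 and nicotinic channels to excite the fibres.

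The deposited intensity per probe set was not on a common scale, with a trimmed mean signal between 361 in the STZ FK1706 array of week 3 and 534 in the normal array of week 1. All levels below are therefore quantile-normalized log2 signals, and all differences are relative to the median gene. Arrays correlated with r between 0.97 and 0.981 across probe sets. The ganglia were well marked by neuronal genes, whose mean over 14 listed genes lay between 12.03 and 12.09 on every array. Markers of satellite glia (7 of 7) and Schwann cells (6 of 6) were also above background. Skeletal muscle genes were present in uneven amounts, with a list mean of 7.54 to 9.08. That mean includes Pvalb and Myh1, which were bright and nearly level across arrays, at 10.95 to 11.17 and 10.20 to 10.65. In such bulk tissue fewer cells of a type and less RNA per cell cannot be told apart.

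The value table has no detection calls, so background was set from 60 genes of other tissues, such as photoreceptor, pancreas and liver genes. A gene was taken as above background where its mean over the 9 arrays reached the 90th percentile of those genes, a log2 signal of 7.16. By this measure 38 of the 99 genes were above background, and among the 95 receptors 35 were, or 36.8%. Of all genes with a symbol 71% were above it. Ion channel subunits were above background in 15 of 52 cases and G protein-coupled receptors in 20 of 43. The genes just above the threshold were Chrm2 at 7.18 and Adrb3 at 7.19, and those just below it were Gabra3 at 7.15 and Grik5 at 7.14. Each of these lay on both sides of the line on different arrays. At the level of the third highest reference gene 20 genes remained above background, and at the 75th percentile of the reference 50 did. Levels of different genes come from different probes and are not compared here.

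**Figure D1:**
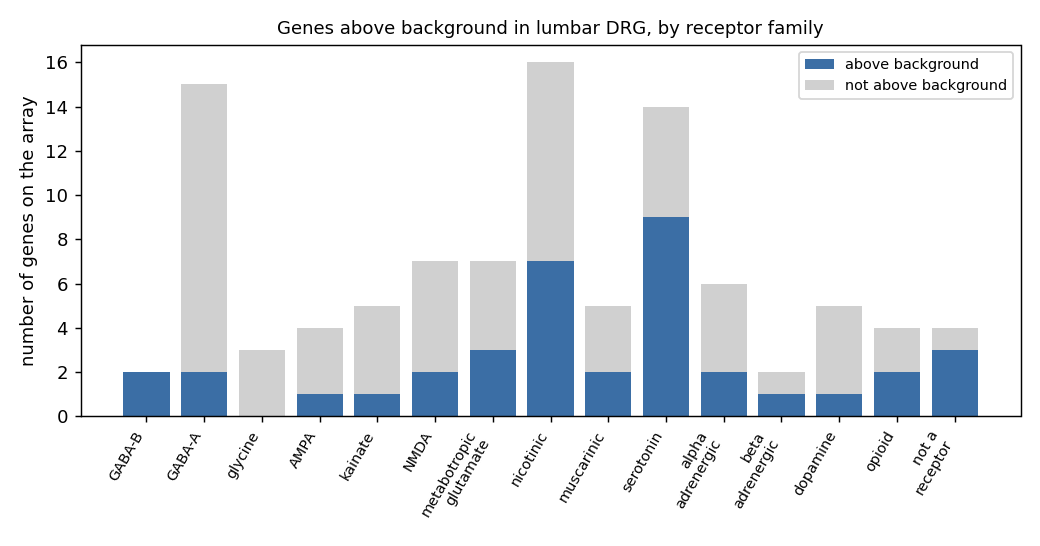
Number of genes of each receptor family on the array (bar height), split into those above background in ganglia (blue) and those not above it (grey). GABA-B receptors were above background in 2 of 2 cases, serotonin receptors in 9 of 14 and GABA-A subunits in 2 of 15.

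Among inhibitory receptors the GABA-B receptor stood out by its completeness. Gabbr1, the subunit that binds GABA, and Gabbr2, the subunit that couples to the G protein, were both above background on 9 of 9 arrays. Of the 15 GABA-A subunits on the array 2 were above background. These were Gabrb2, a beta subunit, and Gabrg1, a gamma subunit. The 4 alpha subunits measured (Gabra3, Gabra4, Gabra5 and Gabra6) were not above it. The 3 glycine receptor subunits Glra1, Glra2 and Glra3 were not above it on any array.

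For glutamate, each ionotropic family had few members above background. Gria2, the AMPA subunit that limits calcium entry, was above it and Gria1, Gria3 and Gria4 were not. Grik1, the kainate subunit GluK1 of sensory neurons, was above it and the other 4 kainate genes were not. Grin1, the obligatory NMDA subunit, and Grin2c were above it, whereas Grin2a, Grin2b, Grin2d, Grin3a and Grin3b were not. Of the metabotropic receptors Grm4, Grm7 and Grm8 were above background, which are the 3 measured group III receptors found outside the retina. Grm6, the retinal member of that group, and Grm2, Grm3 and Grm5 were not.

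For acetylcholine, 7 of 16 nicotinic subunits were above background, namely Chrna2, Chrna3, Chrna6, Chrna7, Chrnb2, Chrnb4 and Chrne. Chrna3 and Chrnb4 form the receptor of autonomic ganglia and Chrna7 forms a homomeric channel. Chrne belongs to the adult muscle receptor, and the other muscle subunits Chrna1, Chrnb1, Chrnd and Chrng were not above background. Of the muscarinic receptors Chrm2 and Chrm3 were above it and Chrm1, Chrm4 and Chrm5 were not. Markers of sympathetic neurons were low, with 1 of 6 above background, and the noradrenergic enzyme genes Th and Dbh and the acetylcholine synthesis gene Chat were not above it.

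Serotonin receptors had the most members above background, with 9 of 14. Htr3a and Htr3b, the subunits of the 5-HT3 channel, were above it on 9 of 9 arrays. Htr1b and Htr1d, the receptors that triptans act on, Htr2a, Htr4, Htr5a and Htr7 were above it as well, and Htr2c on 6 of 9 arrays. Htr1a, Htr1f, Htr2b, Htr5b and Htr6 were not. Among catecholamine receptors Adra1b, Adra2c, Adrb3 and Drd2 were above background. Adra2a, an alpha-2 receptor, was not, at 5.55 to 6.66, and neither were Drd1, Drd3, Drd4 and Drd5.

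Of the 4 opioid family receptors Oprk1, the kappa receptor, and Oprl1, the nociceptin receptor, were above background. Oprd1, the delta receptor, and Oprm1, the mu receptor through which morphine acts, were not. In weeks 1, 2 and 3 Oprm1 was at 5.999, 6.87 and 6.70 in normal rats, 6.78, 6.69 and 7.67 in STZ vehicle rats and 6.39, 7.26 and 7.20 in STZ FK1706 rats. These values lay above the threshold on 3 of 9 arrays, and the other Oprm1 probe set was lower still, with a mean of 5.72. A probe set that is not above background does not show that the gene is absent from a subset of neurons.

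**Figure D2:**
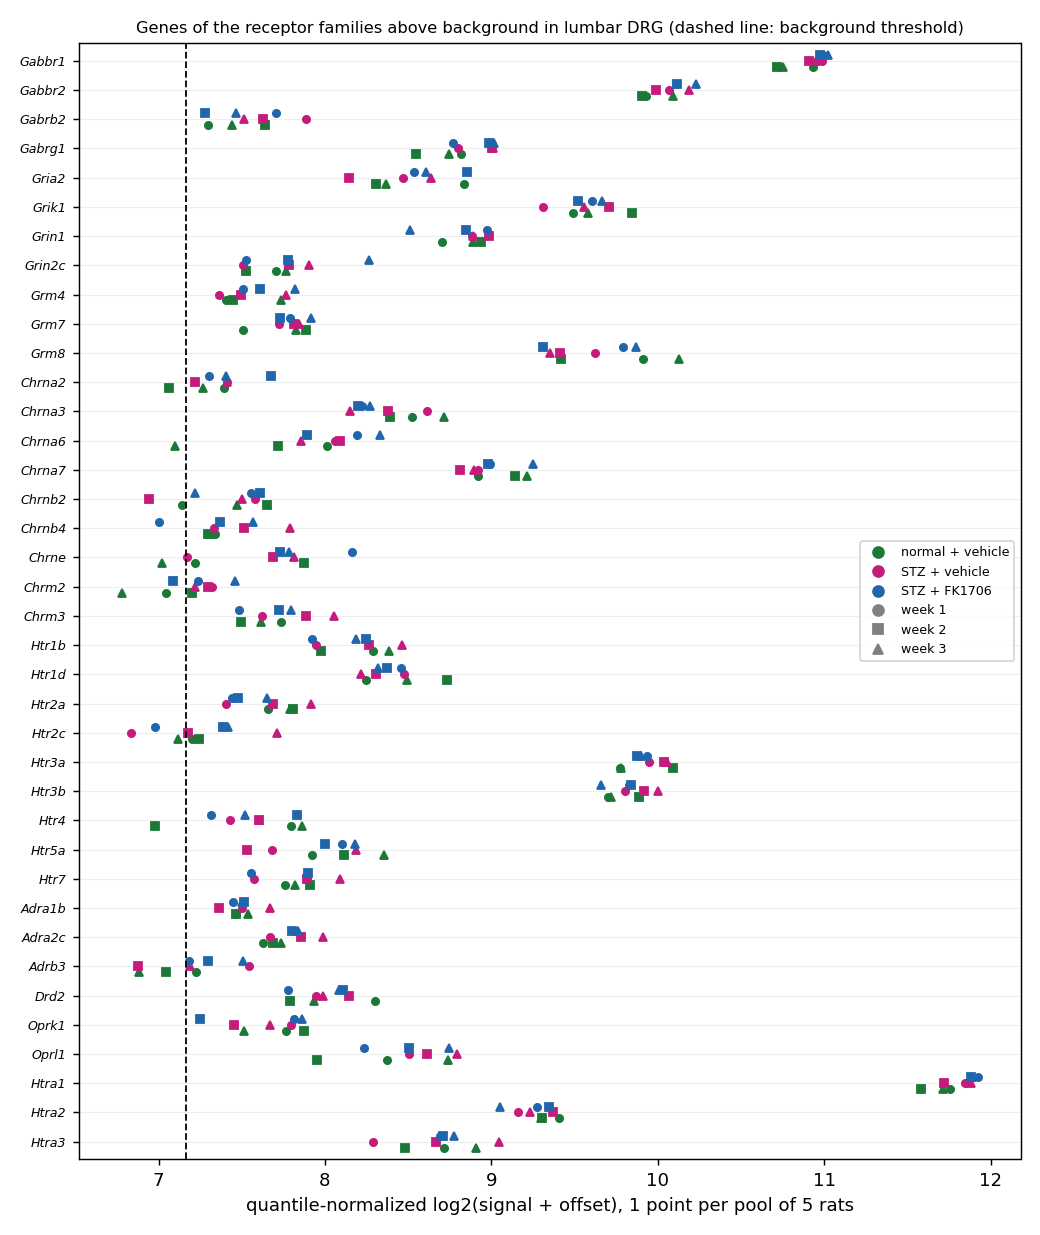
Quantile-normalized log2 signal of the 38 genes above background, with 1 point per pool of 5 rats, coloured by group and shaped by week, and the background threshold of 7.16 as a dashed line. The colours and shapes are mixed along each row for most genes, and the lowest genes, such as Chrm2, Htr2c and Adrb3, cross the threshold.

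The 300 bases that span the start of transcription, most of them upstream of it, were at hand from RefSeq on GRCr8 for 25 of the 35 receptors above background and 47 of the 60 others. The GC box GGGCGG, read on both strands, was in the window of 64% of the former, 40.4% of the latter and 34.9% of all 27457 promoters of the table. The TATA box TATAAA was in 0%, 8.51% and 14.3%, on either strand, and the median number of CpG dinucleotides was 16, 11 and 7. The CRE motif TGACGTCA was in 0% of both receptor sets and 1.91% of all promoters. The sequence TTCAGCACC, a part of the longer RE1 motif, was in 0%, 0% and 0.379%, and the full motif was not searched for. These shares describe the windows, and no binding was measured.

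Promoters of the GABA-B pair and of the ganglionic nicotinic pair are shown, because both partners of each receptor were above background. They were Gabbr1 at chr20:1499187-1499486, Gabbr2 at chr5:66083646-66083945, Chrna3 at chr8:64311202-64311501 and Chrnb4 at chr8:64333060-64333359, all on the minus strand of GRCr8 and read 5′ to 3′ along the gene. Capitals mark the GC box on either strand, with 4 matches in Gabbr1, 1 in Gabbr2, 2 in Chrna3 and 1 in Chrnb4.
Gabbr1: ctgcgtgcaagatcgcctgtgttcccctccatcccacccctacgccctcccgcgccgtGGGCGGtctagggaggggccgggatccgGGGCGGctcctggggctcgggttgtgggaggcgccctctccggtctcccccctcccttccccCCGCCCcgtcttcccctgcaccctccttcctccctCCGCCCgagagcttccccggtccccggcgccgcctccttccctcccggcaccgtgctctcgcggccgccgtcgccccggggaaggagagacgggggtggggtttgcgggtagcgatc
Gabbr2: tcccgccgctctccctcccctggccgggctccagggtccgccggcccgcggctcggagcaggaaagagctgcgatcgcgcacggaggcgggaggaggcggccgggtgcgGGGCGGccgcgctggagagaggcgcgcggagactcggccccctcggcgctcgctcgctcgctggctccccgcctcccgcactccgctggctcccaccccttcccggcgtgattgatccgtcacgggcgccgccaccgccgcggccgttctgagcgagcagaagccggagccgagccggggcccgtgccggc
Chrna3: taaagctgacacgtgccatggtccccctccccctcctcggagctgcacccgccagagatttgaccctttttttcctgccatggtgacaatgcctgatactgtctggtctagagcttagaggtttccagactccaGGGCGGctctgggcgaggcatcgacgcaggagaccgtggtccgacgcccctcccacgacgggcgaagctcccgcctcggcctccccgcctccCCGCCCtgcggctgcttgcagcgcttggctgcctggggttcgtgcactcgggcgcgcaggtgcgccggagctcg
Chrnb4: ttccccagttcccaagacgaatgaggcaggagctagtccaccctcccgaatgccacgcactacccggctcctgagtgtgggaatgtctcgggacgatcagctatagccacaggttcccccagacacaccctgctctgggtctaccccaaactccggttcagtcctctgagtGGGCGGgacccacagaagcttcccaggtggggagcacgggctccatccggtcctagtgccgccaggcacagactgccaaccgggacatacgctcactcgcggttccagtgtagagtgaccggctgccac
The 2 GABA-B windows held 32 and 47 CpG dinucleotides and the nicotinic windows 26 and 16.

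For the comparisons 34 of the 99 genes were bright enough to be tested (their mean reached 7.36, the 40th percentile over probe sets), 31 of them receptors, as part of a fit over 6989 genes. In each comparison of groups and of weeks 0 of the 34 passed at an adjusted p under 0.05 (limma, Benjamini-Hochberg over all genes tested). The median standard error of a difference was 0.14, against 0.12 for all genes tested. The counts at an unadjusted p under 0.05, given for each comparison below, are descriptions and stand beside the share of all genes that reached the same limit.

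Setting STZ vehicle against normal vehicle addresses which receptor transcripts differ in ganglia after STZ. The lowest values relative to normal were those of Grm8, a presynaptic metabotropic glutamate receptor, and Htr5a, a serotonin receptor that couples to inhibitory G proteins. The highest were those of Chrna6 and Oprl1. With limma 0 of the 34 genes passed, where 0.1% of all genes did (0.0143% higher and 0.0858% lower). Of the 34, 2 had an unadjusted p under 0.05, both lower, where 8.64% of all genes were (3.95% higher and 4.69% lower). The median difference was 0.02 over the 34 genes, with 22 above 0 (50.2% of all genes were), and 0.0006 over all genes.

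Grm8 was at 9.91, 9.42 and 10.12 in normal rats in weeks 1, 2 and 3, at 9.62, 9.41 and 9.35 in STZ vehicle rats and at 9.79, 9.31 and 9.87 in STZ FK1706 rats. The STZ vehicle value was below normal in each week, yet the groups overlapped, because the normal value of week 2 was low. The difference from normal was -0.35 (SE 0.13, 95% interval -0.64 to -0.07, 1.28-fold, adjusted p = 0.479 in limma), and almost all of it came from weeks 1 and 3 (-0.29 and -0.77, against -0.0021 in week 2). A dimmer Grm8 probe set, with a mean of 7.14, had 0.15, and the dimmest, at 5.56, had -0.10.

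Htr5a was at 7.92, 8.11 and 8.35 in normal rats, 7.68, 7.53 and 8.19 in STZ vehicle rats and 8.10, 8.001 and 8.18 in STZ FK1706 rats. The STZ vehicle value was the lowest in weeks 1 and 2, and the groups overlapped. It differed from normal by -0.33 (SE 0.14, 95% interval -0.64 to -0.02, adjusted p = 0.552 in limma).

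Chrna7, the homomeric nicotinic subunit, was the 1 gene of the 34 whose groups did not overlap, with STZ lower, where 6.95% of all genes were lower without overlap and 5.84% higher. It was at 8.92, 9.14 and 9.21 in normal rats, 8.92, 8.81 and 8.89 in STZ vehicle rats and 8.99, 8.98 and 9.25 in STZ FK1706 rats. The absence of overlap rests on week 1, where STZ vehicle lay 0.0026 below normal, and with arrays brought to a common median no gene of the 34 was without overlap, where 4.82% of all genes were higher and 5.61% lower in that way. In the later weeks STZ vehicle was lower by 0.33 and 0.32. The difference was -0.22 (SE 0.10, adjusted p = 0.576 in limma), 1.16-fold.

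Of the genes with higher values in STZ, Chrna6, a nicotinic subunit of the alpha6 type, had 0.39 (SE 0.20, adjusted p = 0.58 in limma). By week it was 0.05, 0.37 and 0.76. Its normal value of week 3, 7.10, was below background and was the lowest Chrna6 value of the 9 arrays. Oprl1 had 0.28 (SE 0.14, adjusted p = 0.592), of which 0.66 was in week 2, where the normal value of 7.95 was the lowest of the 9 arrays. Gabbr1 had 0.15 and Gabbr2 0.10, each higher in STZ in 3 of 3 weeks, Gabrg1 had 0.23 and the protease gene Htra1 had 0.13. By class, 9 of 14 ion channel subunits and 12 of 17 G protein-coupled receptors were above 0, with medians of 0.10 and 0.02. Higher in each week were 8 of the 34 genes, where 14.8% of all genes were, and lower in each week were 4, where 16.1% were.

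Setting STZ FK1706 against STZ vehicle addresses which receptor transcripts differ with the drug. The differences of the 34 genes lay between -0.23 and 0.34, with a median of 0.01 and 18 above 0, where 50.4% of all genes were. With limma 0 of 34 genes passed, as did 0% of all genes, and 0 of 34 reached an unadjusted p under 0.05, where 3.12% of all genes did (1.36% higher and 1.76% lower). The 2 serotonin channel subunits had lower values with the drug and Chrna7 and Htr5a higher ones. The STZ vehicle arrays enter both comparisons, as the first term there and the second here, and a low STZ vehicle value lowers the former difference and raises this one.

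Chrna7 was higher with FK1706 in each week (0.07, 0.17 and 0.36), and it was the 1 gene without overlap in that direction, where 3.25% of all genes were. On the deposited scale 0 of the 34 genes were higher without overlap and 5 were lower, beside 0.544% and 1.69% of all genes. Its difference was 0.20 (SE 0.10, 95% interval -0.03 to 0.43, adjusted p = 0.999 in limma). Htr5a had 0.29 (SE 0.14), with 0.42, 0.47 and -0.01 in weeks 1, 2 and 3. The highest estimate was that of Chrne at 0.34 (SE 0.23), which came from week 1 alone (0.99, 0.05 and -0.03).

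Htr3a, the subunit needed for every 5-HT3 channel, was at 9.78, 10.09 and 9.78 in normal rats, 9.95, 10.03 and 10.06 in STZ vehicle rats and 9.94, 9.87 and 9.90 in STZ FK1706 rats. All STZ FK1706 values lay below all STZ vehicle values, where 3.32% of all genes did so, by a difference of -0.11 (SE 0.09, adjusted p = 0.999 in limma). Htr3b, its partner, was at 9.70, 9.88 and 9.72 in normal rats, 9.80, 9.91 and 9.999 in STZ vehicle rats and 9.82, 9.84 and 9.66 in STZ FK1706 rats, with overlap. Its difference was -0.13 (SE 0.09), and the other Htr3b probe set had -0.02. Chrnb4 had -0.23 (SE 0.16) and Chrm3, a muscarinic receptor coupled to calcium release, -0.19 (SE 0.15), each below STZ vehicle in 3 of 3 weeks.

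Between STZ FK1706 and normal vehicle the difference holds STZ and the drug together. The highest values relative to normal were those of Chrna6 and Chrne, followed by Gabrg1 and Htra1, and the lowest those of Chrna3 and Htr2a. With limma 0 of 34 genes passed, where 0.0143% of all genes did, and 6 were at an unadjusted p under 0.05, or 17.6%, where 8.2% of all genes were. Of these, 5 were higher (Htra1, Gabbr1, Chrna6, Gabbr2 and Chrne), where 3.68% of all genes were, and 1 was lower (Chrna3), where 4.52% were. The median was 0.02, and 19 genes were above 0, where 49.8% of all genes were. Same direction in each week was seen for 6 genes on the higher side, where 13.4% of all genes were, and 3 on the lower side, where 14.1% were. Without overlap 4 genes were higher (Htra1, Gabbr1, Gabbr2 and Adra2c), where 5.57% of all genes were, and 2 were lower (Chrna3 and Htr2a), where 6.07% were. These counts on the deposited scale were 0 and 2, beside 0.343% and 5.09% of all genes, and with a common median 3 and 1, beside 4.12% and 5.74%.

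Gabbr1 was at 10.93, 10.72 and 10.75 in normal rats, 10.99, 10.91 and 10.95 in STZ vehicle rats and 10.99, 10.98 and 11.02 in STZ FK1706 rats. All STZ FK1706 pools lay above all normal pools, and the STZ vehicle pools overlapped both groups. The mean of 10.998 ± 0.024 (SD, n = 3) stood against 10.80 ± 0.11 in normal rats, a difference of 0.20 (SE 0.07, 95% interval 0.04 to 0.35, 1.15-fold, adjusted p = 0.519 in limma).

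Gabbr2 was at 9.93, 9.91 and 10.09 in normal rats, 10.06, 9.99 and 10.19 in STZ vehicle rats and 10.11, 10.12 and 10.23 in STZ FK1706 rats. In each week the order in the probe set used was normal, STZ vehicle, STZ FK1706 from low to high. The other Gabbr2 probe set, with a mean of 7.78, had this order in no week. It had -0.10 for STZ FK1706 against STZ vehicle, where the probe set used had 0.07. The difference of STZ FK1706 from normal in the probe set used was 0.18 (SE 0.07, 1.13-fold, adjusted p = 0.587 in limma). The 2 GABA-B subunits thus differed by amounts near each other in this comparison, and no test of a joint change was made. On the deposited scale, on which the median gene had -0.17, Gabbr1 had 0.01 and Gabbr2 -0.02.

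Chrna3, the alpha subunit of the ganglionic nicotinic receptor, was at 8.52, 8.39 and 8.72 in normal rats, 8.62, 8.38 and 8.15 in STZ vehicle rats and 8.22, 8.20 and 8.27 in STZ FK1706 rats. All STZ FK1706 values were below all normal values, and the STZ vehicle values spread over both. The difference was -0.31 (SE 0.14, 1.24-fold, adjusted p = 0.59 in limma). Its partner Chrnb4 had -0.0008 in the same comparison. Htr2a had -0.23 (SE 0.14, adjusted p = 0.666), and a second Htr2a probe set above background had -0.14.

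Chrna6 had the highest estimate, 0.53 (SE 0.20, 1.44-fold, adjusted p = 0.54 in limma), with 1.23 in week 3 against 0.18 and 0.17 in the earlier weeks. Chrne, the muscle epsilon subunit, had 0.52 (SE 0.23, adjusted p = 0.606 in limma). By week it was 0.95, -0.14 and 0.76. Chrne was highest at 8.16 in the STZ FK1706 array of week 1, where the skeletal muscle list had a mean of 7.66, among the lowest of the 9 arrays. In the normal array of week 2, where that mean was highest at 9.08, Chrne was at 7.87. The part of muscle RNA in the Chrne values was not tested.

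**Figure D3:**
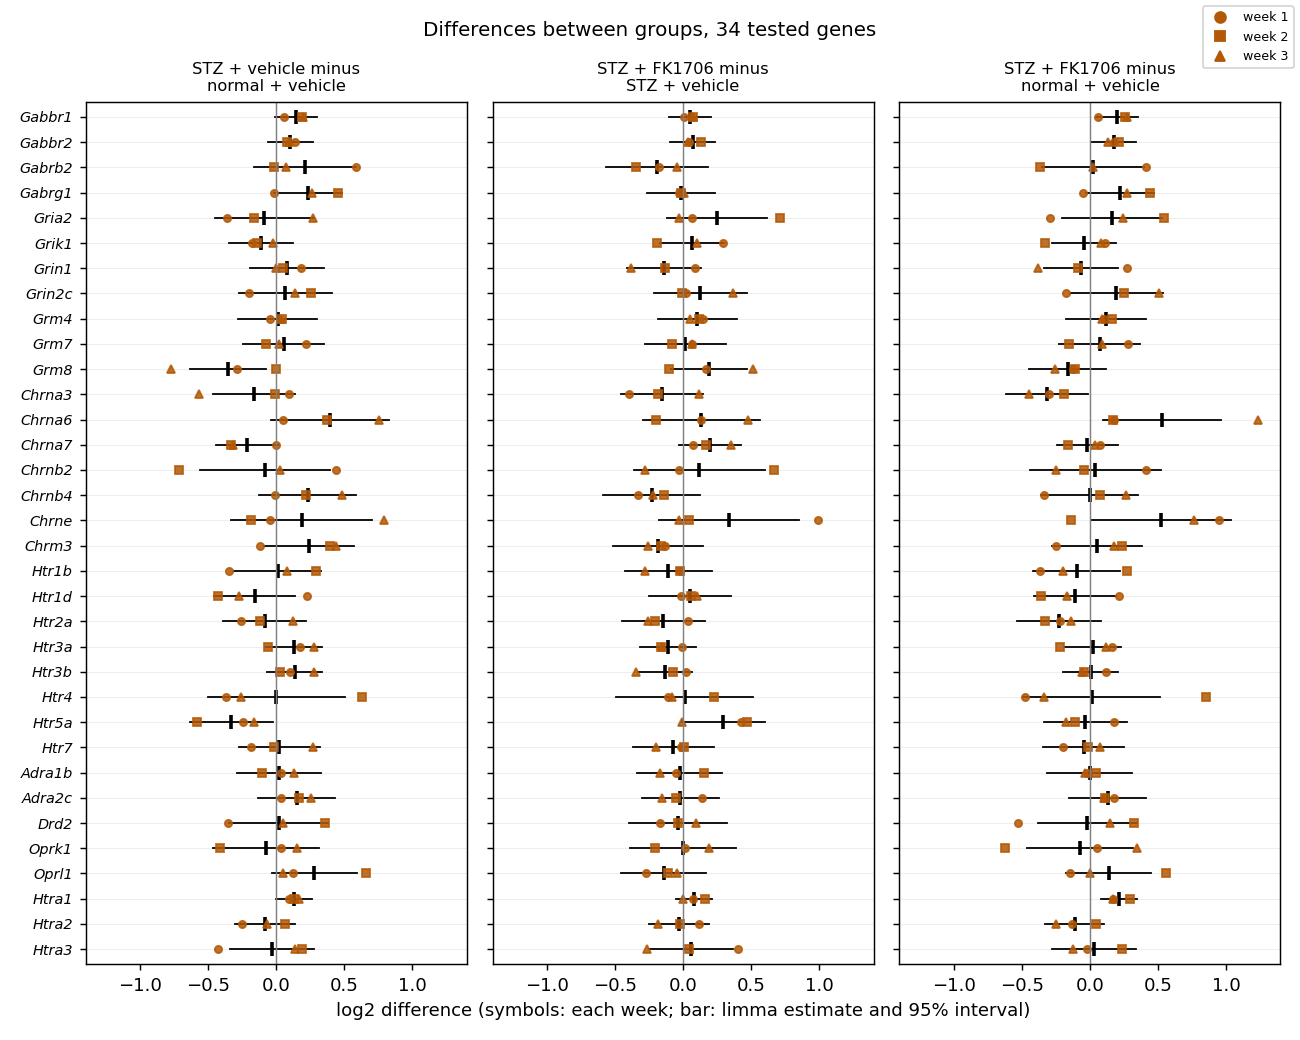
Log2 differences between groups for the 34 tested genes, with 1 symbol per week, the limma estimate as a vertical tick and its 95% interval as a line. Most intervals cross 0 in every panel. The intervals of Grm8 and Htr5a do not in the panel of STZ vehicle against normal. Those of Gabbr1, Gabbr2, Chrna3, Chrna6, Chrne and Htra1 do not in the panel of STZ FK1706 against normal.

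Further receptors of the list of named genes were compared by array. Gria2 was at 8.83, 8.31 and 8.37 in normal rats, 8.47, 8.14 and 8.64 in STZ vehicle rats and 8.54, 8.85 and 8.61 in STZ FK1706 rats. Its highest values were in different groups in different weeks, and STZ vehicle differed from normal by -0.09 (SE 0.17). Grik1 was at 9.49, 9.85 and 9.58 in normal rats, 9.31, 9.71 and 9.56 in STZ vehicle rats and 9.60, 9.52 and 9.66 in STZ FK1706 rats, with all 3 groups over a common range and a difference of -0.11 (SE 0.11).

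Grin1 was at 8.71, 8.94 and 8.89 in normal rats, 8.89, 8.98 and 8.89 in STZ vehicle rats and 8.98, 8.85 and 8.51 in STZ FK1706 rats. Its lowest value was that of STZ FK1706 in week 3, followed by the normal value of week 1. Grm7, the presynaptic group III receptor with the lowest glutamate affinity, was at 7.51, 7.89 and 7.82 in normal rats, 7.73, 7.81 and 7.85 in STZ vehicle rats and 7.79, 7.73 and 7.91 in STZ FK1706 rats, with the normal value of week 1 the lowest.

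Oprk1 was at 7.77, 7.87 and 7.52 in normal rats, 7.80, 7.46 and 7.67 in STZ vehicle rats and 7.81, 7.25 and 7.86 in STZ FK1706 rats. The groups overlapped, and the lowest values were both in week 2 of the STZ groups. Adra2c, an alpha-2 adrenergic receptor, was at 7.63, 7.69 and 7.74 in normal rats, 7.67, 7.86 and 7.99 in STZ vehicle rats and 7.81, 7.80 and 7.84 in STZ FK1706 rats. The STZ FK1706 values lay above all normal values, by 0.13 (SE 0.13), and the sign turned on the deposited scale (-0.02).

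Drd2, the dopamine D2 receptor, was at 8.30, 7.79 and 7.94 in normal rats, 7.94, 8.14 and 7.99 in STZ vehicle rats and 7.78, 8.11 and 8.08 in STZ FK1706 rats, and its highest value was the normal one of week 1. Htr1d was at 8.25, 8.73 and 8.49 in normal rats, 8.47, 8.31 and 8.22 in STZ vehicle rats and 8.46, 8.37 and 8.32 in STZ FK1706 rats, and its highest value was the normal one of week 2. Among genes that were not above background, the AMPA subunit Gria4 ranged over 5.07 to 6.38, the NMDA subunit Grin2b over 6.46 to 7.22, the glycine receptor subunit Glra2 over 4.70 to 6.21, the muscle nicotinic subunit Chrna1 over 6.34 to 7.34 and the adrenergic receptor Adra1d over 4.83 to 5.51. None of these was tested, and no difference is given for them.

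How large a difference could have been present is given by the intervals. The 95% interval lay within 1.5-fold in both directions for 27 of 34 genes in STZ vehicle against normal, 29 in STZ FK1706 against STZ vehicle and 31 in STZ FK1706 against normal, where 90%, 92.6% and 89.5% of all genes did. For week 2 against 1, week 3 against 2 and week 3 against 1 the counts were 30, 27 and 23, where 92%, 87.8% and 85.8% of all genes did. The genes for which it did not in the first comparison were Chrna6, Chrnb4, Chrne, Gabrb2, Grm8, Htr5a and Oprl1. No gene of the 34 was at least 1.5-fold apart in the same direction in each of the 3 weeks in any comparison of groups. Of all genes 0.0143% were so on the higher side and 0.0572% on the lower side in the first comparison, 0% and 0.0143% in the second and 0% and 0.0286% in the third. A change of the group difference over the weeks passed at an adjusted p under 0.05 in 0 of 34 genes (limma with a linear week term). This was so in 0% of all genes. That fit left 2 residual degrees of freedom, so that a change could be missed. At an unadjusted p under 0.05 there were 0 genes in the first comparison, where 4.05% of all genes were, and 0 in the second, where 3.48% were. In STZ FK1706 against normal there were 2, where 4.95% were: Chrna6 (0.53 per week) and Grin1 (-0.33 per week).

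Comparing weeks over the 3 groups asks which receptors moved with time on study. In that time age, duration of dosing with vehicle or FK1706, duration of diabetes in the STZ groups and time of sampling run together. Over all 3 weeks 0 of 34 genes passed (moderated F test in limma), where 0.0572% of all genes did, and Grm8, Oprl1 and Htr5a were at an unadjusted p under 0.05, where 10.5% of all genes were. In week 3 against week 1, 22 of the 34 genes were above 0 relative to the median gene, where 48.9% of all genes were. The 4 other-tissue reference genes bright enough to be tested had a median of 0.27 in the same comparison, with 0.24, 0.33 and 0.29 in normal, STZ vehicle and STZ FK1706 rats, above that of the receptor genes (0.11), and the part of such a shift in the receptor values was not tested. In that comparison 0 of 34 passed, where 0.0143% of all genes did. At an unadjusted p under 0.05 there were 6, all higher, or 17.6%. Of all genes 12.7% were under that limit, 6.5% higher and 6.21% lower. These 6 were Oprl1, Grm4, Grin2c, Htra3, Htr5a and Htr7. For Htra3 the probe set used had 0.34 and another above background had -0.38.

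Without overlap between weeks 3 and 1, 8 of the 34 genes were higher, or 23.5%, where 9.54% of all genes were. They were those 6 with Grm7 and Adra1b. None was lower, where 9.21% of all genes were. In the same direction in each group 14 were higher, where 18.1% of all genes were, and 0 were lower, where 18.5% were. The median difference of the 34 genes was 0.11, against -0.0042 for all genes. By class it was 0.15 for the 17 G protein-coupled receptors, 13 of them above 0, and 0.02 for the 14 ion channel subunits, 8 of them above 0. Among the 8 serotonin receptors 7 were above 0, with a median of 0.22.

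This pattern depends on the scale. On the deposited scale, where the median gene had -0.43 between weeks 3 and 1, 0 of the 34 genes were higher without overlap and 18 were lower, against 72% of all genes. With arrays brought to a common median instead, 9 were higher and 1 lower, beside 5.67% and 20.9% of all genes. With all genes tested cut by level into 4 equal bins, 17 of the 34 lay in the lowest bin, where their median was 0.15 and that of all genes there -0.0034, and in the upper bins the medians of the others were 0.04, 0.01 and 0.005.

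Oprl1 was at 8.38, 8.50 and 8.23 in week 1 in normal, STZ vehicle and STZ FK1706 rats, 7.95, 8.62 and 8.51 in week 2 and 8.74, 8.79 and 8.74 in week 3. All 3 groups were above their own earlier values in week 3. The difference of week 3 from week 1 was 0.39 (SE 0.14, 1.31-fold, adjusted p = 0.312 in limma), and -0.01 on the deposited scale. The other Oprl1 probe sets, both above background, had -0.19 and -0.08.

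Grm4, a group III metabotropic glutamate receptor, was at 7.41, 7.36 and 7.51 in week 1 in the same order of groups, 7.45, 7.50 and 7.61 in week 2 and 7.73, 7.77 and 7.82 in week 3. Week 3 was the highest in each group. The difference from week 1 was 0.35 (SE 0.13, adjusted p = 0.328 in limma), and 0.04 on the deposited scale. Grin2c, an NMDA subunit, had 0.40 (SE 0.16), Htr5a 0.34 (SE 0.14) and Htr7, a serotonin receptor coupled to cyclic AMP, 0.30 (SE 0.14). On the deposited scale these 3 had 0.07, -0.02 and -0.03.

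Between weeks 1 and 2, 0 of 34 genes passed in limma, where 0.0143% of all genes did, and 1 was at an unadjusted p under 0.05, where 5.79% were (2.85% higher and 2.95% lower). This was Grm8, with -0.40 (SE 0.13, 1.32-fold, adjusted p = 0.774), and with -0.50, -0.21 and -0.48 in normal, STZ vehicle and STZ FK1706 rats. Without overlap Htr7 (0.27) and Htr3b (0.10) were higher, where 6.05% of all genes were, and Grm8 was lower, where 4.89% were. These counts were 0 and 6 on the deposited scale, beside 0.143% and 23% of all genes. Between weeks 2 and 3, 0 passed, where 0.0143% of all genes did. At an unadjusted p under 0.05 there were 4, all higher, where 10.1% of all genes were (5.35% higher and 4.74% lower). These were Grm8 (0.40), Oprl1 (0.40), Htr5a (0.36) and Gabbr2 (0.17). Without overlap 4 genes were higher (Oprl1, Htr5a, Htra3 and Grm4), where 6.3% of all genes were, and Htra2 was lower, where 7.54% were. With the deposited scale 1 was higher and 8 lower, beside 0.787% and 36.3% of all genes. In the probe set used, Grm8 was low in week 2 in normal and STZ FK1706 rats and back near its first level in week 3, with 0.01 between weeks 3 and 1. The dimmer Grm8 probe sets, not above background, did not show this. They had 0.06 and 0.36 for week 2 against week 1, and 0.02 and -0.03 for week 3 against week 2.

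**Figure D4:**
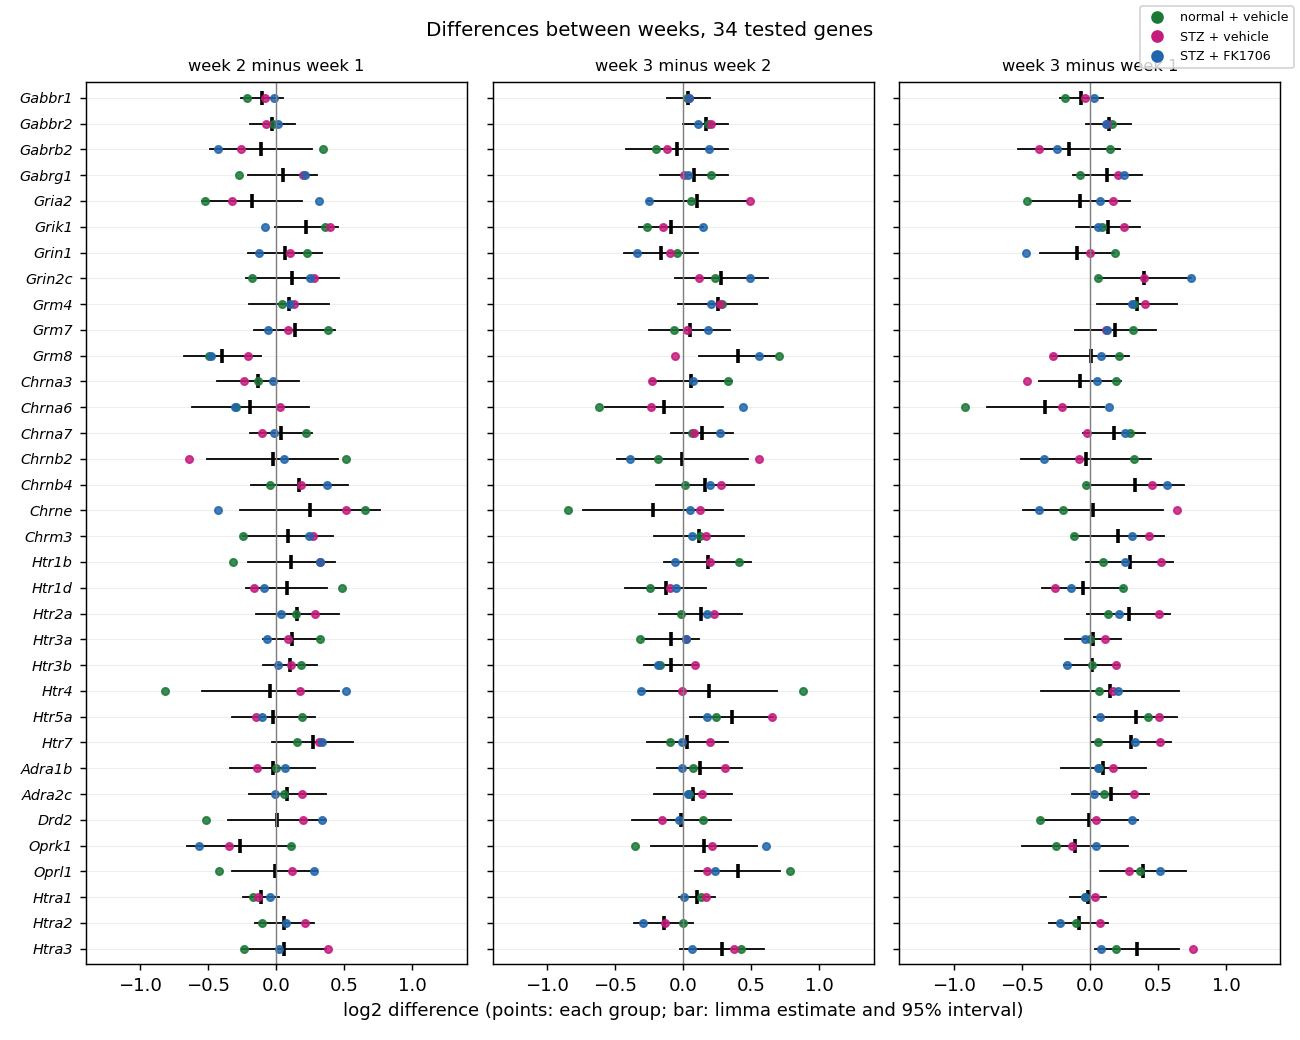
Log2 differences between weeks for the 34 tested genes, with 1 point per group, the limma estimate as a vertical tick and its 95% interval as a line. In the panel of week 3 minus week 1 the points of all 3 groups lie above 0 for 14 genes and below 0 for none.

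Genes with several probe sets show how far a difference rests on the probes. Of the 99 genes 26 had more than 1. In STZ vehicle against normal the 3 Oprl1 probe sets had 0.28, 0.43 and 0.31, all higher. The 4 Gabbr1 probe sets above background had 0.15, 0.12, -0.17 and 0.10, and for STZ FK1706 against normal they had 0.20, 0.22, 0.06 and 0.07, all higher. The 2 Gabbr2 probe sets had 0.18 and 0.05 in that comparison. The 2 Oprk1 probe sets above background had -0.08 and 0.12 in STZ vehicle against normal.

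**Figure D5:**
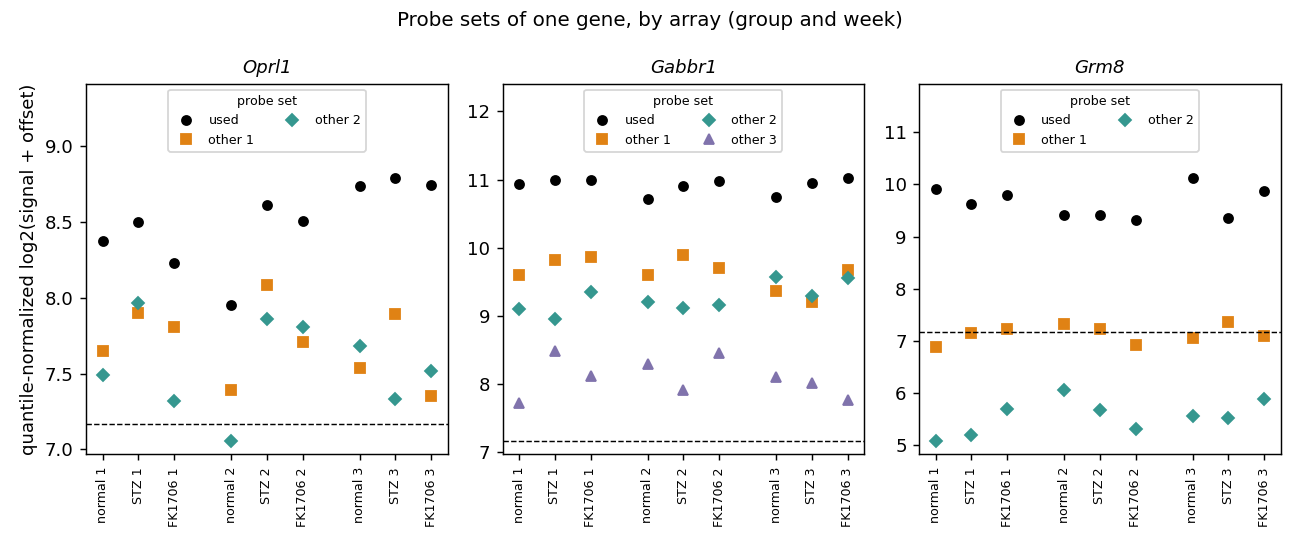
Quantile-normalized log2 signal of the probe sets of Oprl1, Gabbr1 (those above background) and Grm8 by array, with the background threshold of 7.16 as a dashed line and the probe set used in black. The Oprl1 probe set used and 1 of the others are lowest in the normal array of week 2, while the last is lowest in the STZ FK1706 array of week 3, and the brightest Grm8 probe set varies while the others stay near or below the threshold.

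Transporters, enzymes, peptide precursors and signalling partners of these receptors were described from a list of 77 genes, of which 64 were on the array and 37 were tested. With limma 0 of 37 passed in any comparison. The counts at an unadjusted p under 0.05 follow beside the share of all genes in the same direction. STZ vehicle against normal had 0 higher (3.95% of all genes) and 1 lower (4.69%), which was Maob, a monoamine oxidase (-0.31). STZ FK1706 against STZ vehicle had 2 higher (1.36%), the enkephalin precursor gene Penk (0.30) and the potassium channel gene Kcnj6 (0.47), which opens downstream of GABA-B and opioid receptors, and 0 lower (1.76%). STZ FK1706 against normal had 2 higher (3.68%), Kcnj6 (0.52) and the vesicular glutamate transporter gene Slc17a7 (0.35), and 2 lower (4.52%), Maob (-0.40) and the kinase gene Camk2b (-0.28).

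Week 2 against week 1 had 0 higher (2.85%) and 1 lower (2.95%), the G protein gene Gnaq (-0.37). Week 3 against week 2 had 2 higher (5.35%), Gnaq (0.32) and Gnas (0.15), another G protein gene, and 1 lower (4.74%), Gabarapl1 (-0.23), of a family that binds GABA-A receptors. Week 3 against week 1 had 1 higher (6.5%), the dopamine transporter gene Slc6a3 (0.41), and 1 lower (6.21%), Gabarapl1 (-0.20).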

How the data were processed

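Biotin-labelled RNA was hybridised to 9 Affymetrix arrays with 15923 probe sets. The deposited values are linear intensity of each probe set, computed by the authors with MAS5, per the submitters' processing notes, with scaling and detection calls not given in the sources used here. The number of arrays limits the precision.

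From these values log2(signal + 18.7) was taken, where 18.7 is the 10th percentile, and quantile-normalized. For each gene the probe set with the highest mean was kept, and genes whose mean reached 7.36, the 40th percentile over probe sets, entered the test. Groups and weeks were compared in limma 3.58.1 (R 4.3.3) with factors for group and week, an intensity trend and Benjamini-Hochberg adjustment over 6989 genes, two-sided. The week factor is the block of equal replicate numbers, which were set here by the week in the sample titles. The titles do not say whether arrays of the same week were sampled or processed together. Residuals of same-week arrays correlated at 0.009 to 0.325. The method was tested on simulated data. Probe sets with 1 symbol numbered 12783, with several 312 and with none 2771, and 57 controls were left out of the tests. Alternatives were another scale, offset, filter, probe set, variance prior and background, no block, and arrays or weeks left out.

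Members of the gene group, lists and tests were chosen with earlier results of these data known. Genes were named from a list of 30 receptors, and, for each comparison, up to 5 tested genes per direction by moderated t. Genes named for completing a family or for groups that did not overlap were chosen after their values were seen.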

Additional observations from a re-analysis of the deposited data

How the results depend on the processing

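Under every setting tried other than the deposited scale, 0 of the tested genes of the receptor group passed in limma in any comparison, and this held without the replicate block too (0 in each comparison), so the block changed no call. On the deposited scale the median was -0.0805 for STZ vehicle against normal, it was -0.0495 for STZ FK1706 against STZ vehicle and -0.145 against normal, and it was -0.16 for week 2 against 1, -0.099 for week 3 against 2 and -0.31 for week 3 against 1, and 2, 4 and 16 genes passed in the week comparisons. There the shift of all genes was -0.43 between weeks 3 and 1, and Htr3a (-0.448), Htr3b (-0.453), Grm8 (-0.455), Grik1 (-0.32), Gabbr2 (-0.34) and Gabrg1 (-0.30) turned direction and passed. In all, 68 of 186 differences of single named genes turned sign on that scale. The week 3 against week 1 median was 0.033 with a common median, 0.01 with the 60th percentile filter and 0.0236 with the lowest-mean probe set. The STZ FK1706 against STZ vehicle median was 0.0505 with that filter and -0.0223 with that probe set. The STZ FK1706 against normal median was 0.0388 with no filter, 0.0335 without week 1 and 0.0369 without week 3. The STZ vehicle against normal median was 0.0972 without week 1 and 0.0864 without week 2.

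Leaving out 1 array at a time, the medians ranged from 0.0069 to 0.0899 (STZ vehicle against normal), -0.02 to 0.01 (STZ FK1706 against STZ vehicle), -0.0011 to 0.0553 (STZ FK1706 against normal), -0.0087 to 0.07 (week 2 against 1), 0.0551 to 0.11 (week 3 against 2) and 0.077 to 0.12 (week 3 against 1). The cause of these shifts was not tested. Of all genes 7, 0, 1, 1, 1 and 1 passed in the 6 comparisons in that order, 0 to 7, 0, 0 to 1, 0 to 1, 0 to 3 and 0 to 10 under the other settings with no single array left out, 0 to 6, 0, 0 to 2, 0 to 4, 0 to 2 and 0 to 10 with 1 array left out, and 16, 0, 106, 168, 1604 and 5102 on the deposited scale. At the third highest reference gene 20 genes were above background. With 3 pools a group, a low signal close to background limits what can be seen for most of the receptor genes.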
